A study of Sus scrofa with 6 samples.

Results

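The genes described here encode the enzymes that make and break down the inhibitory transmitter GABA and the proteins that carry it across membranes. They are the glutamate decarboxylase genes GAD1 and GAD2, the breakdown genes ABAT and ALDH5A1, the aldehyde dehydrogenase gene ALDH9A1 of the putrescine route to GABA, and the transporter genes SLC32A1, SLC6A11 and SLC6A12. They were chosen by function, as named rows of the deposited gene tables, and all 8 were present among 17201 listed genes. All 8 also passed the filter on low counts, which left 14373 genes in the test. RNA came from the prefrontal cortex of 6 pigs (Sus scrofa) aged 3 months. Of these, 3 (VPA 391, 392 and 393) had been exposed to valproic acid (VPA) in early gestation per the series' design text, at a labelled dose of 75 mg/kg. The other 3 (control 401, 402 and 408) were labelled as given no treatment. The series' title calls it an autism pig model. The labels state neither breed, sex nor litter, nor any sequencing batch, and they number the animals without saying whether littermates were among them.

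Libraries held 16285517 to 17989032 counts, and levels are given as CPM, the gene's counts scaled by its library total. Every measured marker of cortical glutamatergic neurons and of GABAergic interneurons had counts. The Y-linked gene EIF1AY had 0 counts in VPA 392 and 2 in control 401, against 450 to 548 in the other 4 libraries, so the animals of each group were not alike in this gene. VPA 393 also had 901 summed CPM over 17 striatal projection neuron markers, genes of a region below the cortex, against 389 in VPA 391, 410 in VPA 392 and 334 to 375 in the controls. In 16 of these 17 markers VPA 393 was the highest library. In bulk tissue, a change in the number of cells of a type and a change in RNA per cell cannot be told apart.

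GABA is made from glutamate by glutamate decarboxylase, is loaded into synaptic vesicles by the vesicular transporter, and is taken up again after release by plasma membrane transporters of neurons and astrocytes. In mitochondria GABA transaminase turns it into succinic semialdehyde, which succinic semialdehyde dehydrogenase oxidises to succinate for the citric acid cycle. A smaller route makes GABA from putrescine, with an aldehyde dehydrogenase at its last step. Valproate, an anticonvulsant drug, is known to inhibit enzymes of GABA breakdown as well as histone deacetylases.

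Between VPA and control cortex the GABA genes differed by small amounts, and none passed the test over all genes. Of the 8, 7 had higher mean levels in VPA cortex, and ALDH5A1 had a lower one. The log2 fold changes (VPA over control) ran from -0.23 to 0.39 with a median of 0.11. Over all genes tested the median was 0.0018, and 50.5% of the values were positive. None was called, that is, none had a Benjamini-Hochberg adjusted p under 0.05 over the 14373 genes in the quasi-likelihood test of edgeR, in which 0.362% of all genes tested were called. Their adjusted p ran from 0.12 to 0.64. At an unadjusted p under 0.05 there were 4 members, against 16.2% of all genes tested. ALDH9A1, SLC6A11 and SLC6A12 were higher in VPA, against 8.69% of all genes tested, and ALDH5A1 lower, against 7.47%. DESeq2 and limma-voom also called 0 of the 8, with 3.14% and 0.209% of their tested genes called. In 5 members (GAD1, ALDH5A1, ALDH9A1, SLC6A11 and SLC6A12) the VPA and control libraries did not overlap, as was so for 21.2% of all genes tested. VPA was the higher group in 4 of these members, against 12.1% of all genes tested, and the lower group in 1, against 9.07%. The other 3 overlapped.

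**Figure D1:**
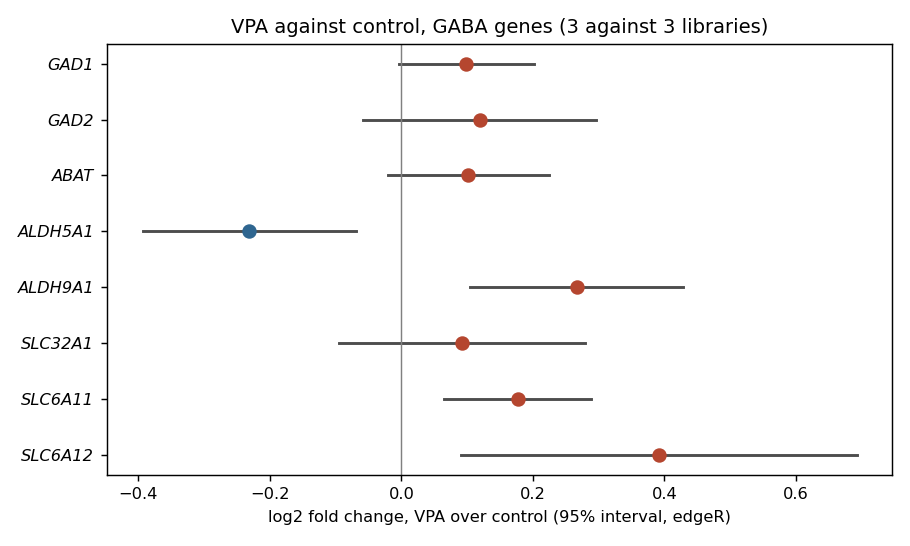
The log2 fold change of each gene (horizontal axis, VPA over control) is drawn as a point with its 95% interval from edgeR's quasi-likelihood fit of 3 VPA and 3 control libraries. The intervals of ALDH5A1, ALDH9A1, SLC6A11 and SLC6A12 lie to one side of 0, before any adjustment for the 14373 genes tested, and those of GAD1, GAD2, ABAT and SLC32A1 include it.

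The decarboxylase genes had slightly higher means in VPA cortex. GAD1 encodes the larger decarboxylase, GAD67, which is found throughout the neuron and supplies most of its GABA. It had 367, 352 and 358 CPM in VPA 391, 392 and 393, against 323, 337 and 337 CPM in control 401, 402 and 408. Every VPA library thus stood above every control, within a narrow range. The means were 359 ± 7.32 CPM in VPA and 332 ± 7.85 CPM in controls (SD, n = 3 each), a log2 fold change of 0.10 ± 0.047 SE (adjusted p = 0.33, edgeR). The 95% interval of the change ran from 0.997-fold to 1.15-fold, so larger differences lay outside it.

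GAD2 encodes GAD65, the decarboxylase concentrated at nerve endings. It had 54.2, 60.8 and 66.7 CPM in VPA 391, 392 and 393, against 57.4, 52.0 and 56.4 CPM in control 401, 402 and 408. The groups overlapped, with VPA 391 below 2 of the controls and VPA 393 above every other library. The log2 fold change was 0.12 ± 0.080 (adjusted p = 0.50, edgeR), with an interval from 0.961-fold to 1.23-fold. Without VPA 393, the library with the high striatal markers, it was 0.05, and without control 402 it was 0.07. Without VPA 391 it was 0.18. It ran from 0.12 to 0.14 without VPA 392, control 401 or control 408. The part of striatal tissue in the GAD2 level was not tested.

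Per length, GAD1 stood about 4-fold above GAD2 in every library. The FPKM ratio of GAD1 to GAD2 was 4.06 ± 0.488 in VPA and 4.10 ± 0.289 in controls (SD, n = 3 each; exact two-sided permutation test, p = 0.90). GAD1 made up 78.5% to 82.1% of the summed GAD1 and GAD2 FPKM in VPA libraries and 79.3% to 81.5% in controls. The split between the decarboxylase genes therefore differed by less than the spread between animals. VPA 391 had the highest ratio at 4.60 and VPA 393 the lowest at 3.65, so the extremes of the 6 libraries were both VPA animals.

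SLC32A1 encodes VGAT, the transporter that fills synaptic vesicles with GABA and glycine. It had 61.4, 62.2 and 76.7 CPM in VPA 391, 392 and 393, against 60.3, 64.3 and 61.7 CPM in control 401, 402 and 408. VPA 391 and 392 lay within the range of the controls, and VPA 393 alone stood above it. The log2 fold change was 0.09 ± 0.085 (adjusted p = 0.64, edgeR) and turned to -0.01 without VPA 393. Relative to GAD1, SLC32A1 had an FPKM ratio of 0.237 ± 0.0320 in VPA and 0.238 ± 0.00478 in controls (exact two-sided permutation test, p = 1). VPA 393 stood apart here too, at 0.274, against 0.214 and 0.225 in VPA 391 and 392 and 0.234 to 0.243 in controls.

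**Figure D2:**
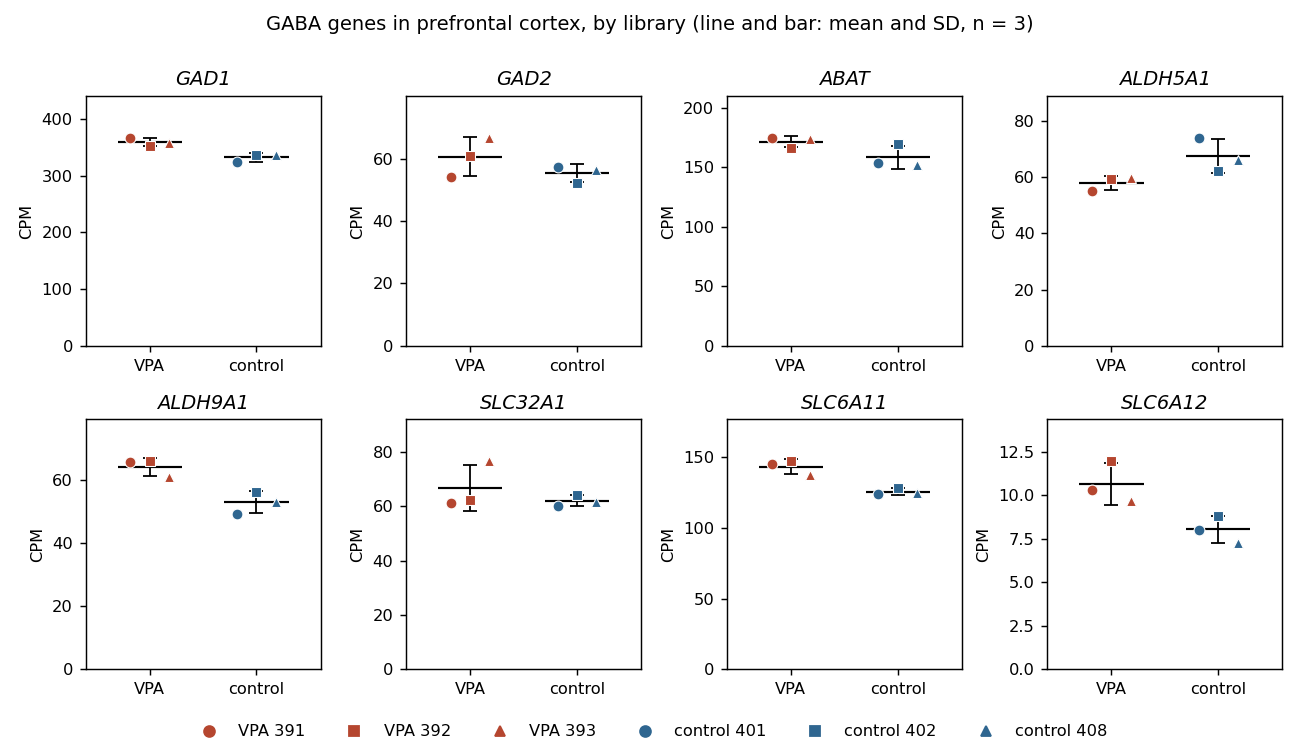
Each panel gives 1 gene's level in CPM (vertical axis, from 0) in 3 VPA libraries and 3 control libraries, with a symbol for each animal and the group's mean and SD. VPA and control points are apart for GAD1, ALDH5A1, ALDH9A1, SLC6A11 and SLC6A12, with ALDH5A1 lower in VPA. VPA 393 is the highest library for GAD2 (66.7 CPM) and SLC32A1 (76.7 CPM).

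In the breakdown route, the mean differences of the first-step and second-step genes had opposite signs, and neither gene was called. ABAT encodes GABA transaminase, the enzyme of the first step. It had 175, 166 and 174 CPM in VPA 391, 392 and 393, against 153, 170 and 152 CPM in control 401, 402 and 408. Control 402 stood among the VPA libraries, so the groups overlapped. The means were 172 ± 4.74 CPM in VPA and 158 ± 9.75 CPM in controls (log2 fold change 0.10 ± 0.055, adjusted p = 0.40, edgeR), with an interval from 0.986-fold to 1.17-fold.

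ALDH5A1 encodes succinic semialdehyde dehydrogenase, the enzyme of the second step. It had 55.1, 59.2 and 59.6 CPM in VPA 391, 392 and 393, against 74.0, 62.3 and 66.1 CPM in control 401, 402 and 408. All VPA libraries lay below all controls, with control 402 closest to them and control 401 farthest. The means were 58.0 ± 2.47 CPM in VPA and 67.5 ± 6.002 CPM in controls (SD, n = 3 each). The log2 fold change was -0.23 ± 0.073 (unadjusted p = 0.0095, adjusted p = 0.16, edgeR), with an interval from 0.761-fold to 0.953-fold. Without control 401 it was -0.17 (adjusted p = 0.27), and without control 402 it was -0.29 (adjusted p = 0.16).

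Taken relative to ABAT within each library, which does not depend on how libraries are scaled, ALDH5A1 was lower in VPA. The ratio uses the same ALDH5A1 counts, and ABAT itself had a higher mean in VPA (log2 fold change 0.10). The FPKM ratio of ALDH5A1 to ABAT was 0.289, 0.327 and 0.315 in VPA 391, 392 and 393, against 0.442, 0.336 and 0.398 in control 401, 402 and 408. The groups did not overlap, though VPA 392 and control 402 were close. The log2 ratio differed by -0.33 between VPA and control libraries (exact two-sided permutation test, p = 0.10, the smallest that 3 against 3 libraries allow; 0.20 adjusted over the 6 ratios compared).

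In RefSeq's gene table (assembly Sscrofa11.1) the spans of ALDH5A1 and GPLD1 overlap, and none of the other 7 members overlaps a listed gene. GPLD1 encodes a phospholipase that cleaves glycosylphosphatidylinositol anchors, and it was examined for this overlap after the ALDH5A1 values were seen. It had 27.6, 26.3 and 30.2 CPM in VPA 391, 392 and 393, against 20.1, 19.4 and 18.1 CPM in control 401, 402 and 408. It was higher in every VPA library and passed the test with all 6 libraries (log2 fold change 0.53 ± 0.087, adjusted p = 0.047, edgeR). It did not pass with any 1 library left out, where its log2 fold change ran from 0.48 to 0.58 and its adjusted p from 0.051 to 0.15.

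Summed over ALDH5A1 and GPLD1, the level was 82.8, 85.5 and 89.8 CPM in VPA 391, 392 and 393, against 94.1, 81.7 and 84.2 CPM in control 401, 402 and 408. The groups then overlapped. Counted as 1 gene, ALDH5A1 and GPLD1 had a log2 fold change near 0, at -0.02 ± 0.063 (adjusted p = 0.89, edgeR). The rule by which the deposited counts assigned reads in a region shared by both genes is not stated in the labels or headers, so the part of such reads in the ALDH5A1 difference was not tested.

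**Figure D3:**
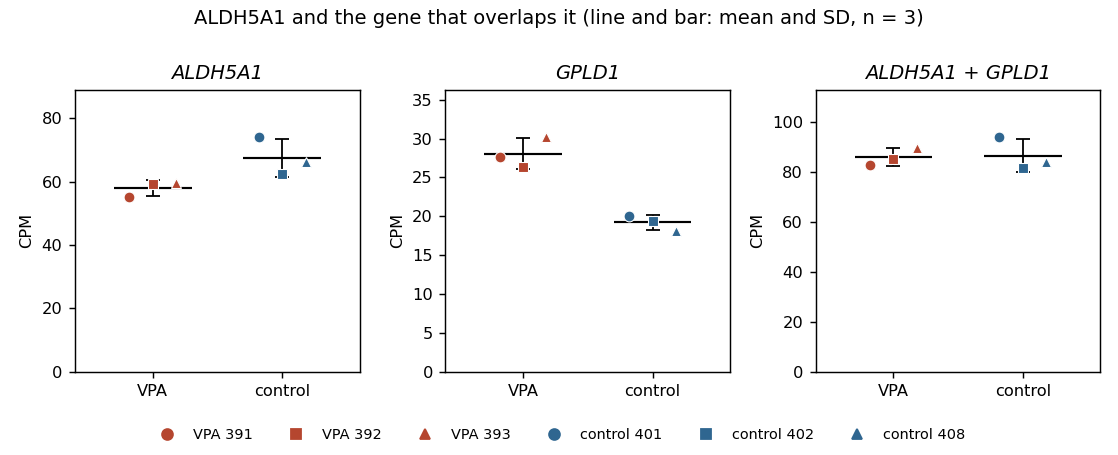
Levels in CPM (vertical axis, from 0) of ALDH5A1, of GPLD1, whose span overlaps that of ALDH5A1 in RefSeq, and of their sum, in 3 VPA and 3 control libraries with group mean and SD. ALDH5A1 was lower and GPLD1 higher in every VPA library than in any control, and their sums of 82.8 to 89.8 CPM in VPA and 81.7 to 94.1 CPM in controls overlap.

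ALDH9A1 encodes an aldehyde dehydrogenase that oxidises aminobutyraldehyde to GABA in the putrescine route and also serves carnitine synthesis. It had 65.7, 66.0 and 60.8 CPM in VPA 391, 392 and 393, against 49.4, 56.4 and 53.0 CPM in control 401, 402 and 408. Every VPA library lay above every control. The means were 64.2 ± 2.91 CPM in VPA and 52.9 ± 3.49 CPM in controls, a log2 fold change of 0.27 ± 0.073 (unadjusted p = 0.0041, adjusted p = 0.12, edgeR). This was the lowest p among the 8 genes and ranked 497 of 14373. The interval ran from 1.08-fold to 1.35-fold. Relative to ABAT, ALDH9A1 had an FPKM ratio of 0.235 ± 0.0147 in VPA and 0.209 ± 0.00814 in controls, without overlap (exact two-sided permutation test, p = 0.10; 0.20 adjusted over 6 ratios). Over the alternatives the adjusted p of ALDH9A1 ran from 0.074 in DESeq2 to 0.32 without VPA 392.

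Both plasma membrane transporter genes among the 8 had higher levels in VPA cortex. SLC6A11 encodes GAT3, the GABA transporter of astrocytes. It had 145, 147 and 137 CPM in VPA 391, 392 and 393, against 124, 128 and 125 CPM in control 401, 402 and 408. The groups did not overlap, and the controls lay close together. The means were 143 ± 5.30 CPM in VPA and 126 ± 2.23 CPM in controls, a log2 fold change of 0.18 ± 0.050 (unadjusted p = 0.0053, adjusted p = 0.13, edgeR) with an interval from 1.05-fold to 1.22-fold. With 1 library left out the adjusted p ran from 0.095 (without VPA 393) to 0.34 (without VPA 392).

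SLC6A12 encodes BGT1, a transporter of betaine and GABA with little presence at synapses. It was the least abundant of the 8, with 172, 195 and 174 counts in VPA 391, 392 and 393, against 144, 149 and 128 counts in control 401, 402 and 408. These counts corresponded to 10.3, 11.97 and 9.67 CPM in the VPA libraries and to 8.005, 8.84 and 7.28 CPM in the controls. VPA 392 stood above the rest, and the lowest VPA library, VPA 393, was just above the highest control, control 402. SLC6A12 had the largest log2 fold change of the 8 genes and also the largest standard error, 0.39 ± 0.14 (unadjusted p = 0.016, adjusted p = 0.19, edgeR), with an interval from 1.06-fold to 1.62-fold. Without VPA 392 it was 0.30. The FPKM ratio of SLC6A11 to SLC6A12 was 13.7 ± 1.08 in VPA and 15.9 ± 1.35 in controls, without overlap (exact two-sided permutation test, p = 0.10; 0.20 adjusted over 6 ratios).

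SLC6A13, the gene of the related GABA transporter GAT2, was read from a list of neighbouring pathway genes. It had 9.81 to 12.4 CPM in VPA and 9.97 to 11.8 CPM in controls, with overlap (log2 fold change 0.0071 ± 0.13, adjusted p = 0.99, edgeR).

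**Figure D4:**
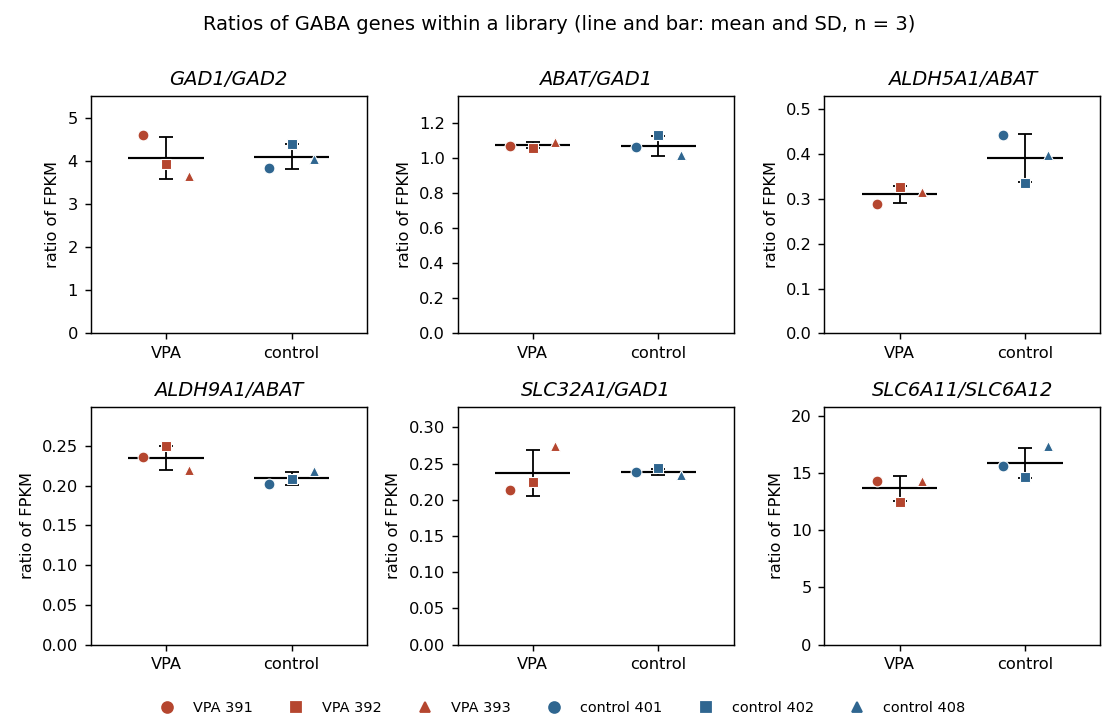
Each panel gives the ratio of FPKM of 2 GABA genes within a library (vertical axis, from 0) for 3 VPA and 3 control libraries, with group mean and SD. The groups are apart for ALDH5A1/ABAT, ALDH9A1/ABAT and SLC6A11/SLC6A12 and overlap for GAD1/GAD2, ABAT/GAD1 and SLC32A1/GAD1.

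Compared per length, the 8 genes fell into tiers. ABAT (103 FPKM on average over the 6 libraries) and GAD1 (95.7 FPKM) were the most abundant. Their ranges overlapped, but ABAT exceeded GAD1 within each of the 6 libraries. The excess was 1.06-fold to 1.09-fold in VPA and 1.02-fold to 1.13-fold in controls. This order rests on the fixed length used for each gene in every library, 1607 bases for ABAT and 3610 bases for GAD1. In CPM, which takes no account of length, GAD1 had the higher mean over the 6 libraries, at 346 against 165. The ABAT to GAD1 ratio was 1.07 ± 0.0162 in VPA and 1.07 ± 0.0576 in controls (exact two-sided permutation test, p = 0.90). ALDH5A1 (35.8 FPKM) and SLC6A11 (30.6 FPKM) followed, with overlapping ranges. ALDH5A1 stood above SLC6A11 in 5 libraries and below it in VPA 391, where ALDH5A1 had 31.4 FPKM and SLC6A11 had 33.1 FPKM. GAD2 (23.6 FPKM), ALDH9A1 (22.8 FPKM) and SLC32A1 (22.8 FPKM) could not be ordered beyond their spread. SLC6A12 lay lowest at 2.10 FPKM, 10.8-fold below SLC32A1.

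**Figure D5:**
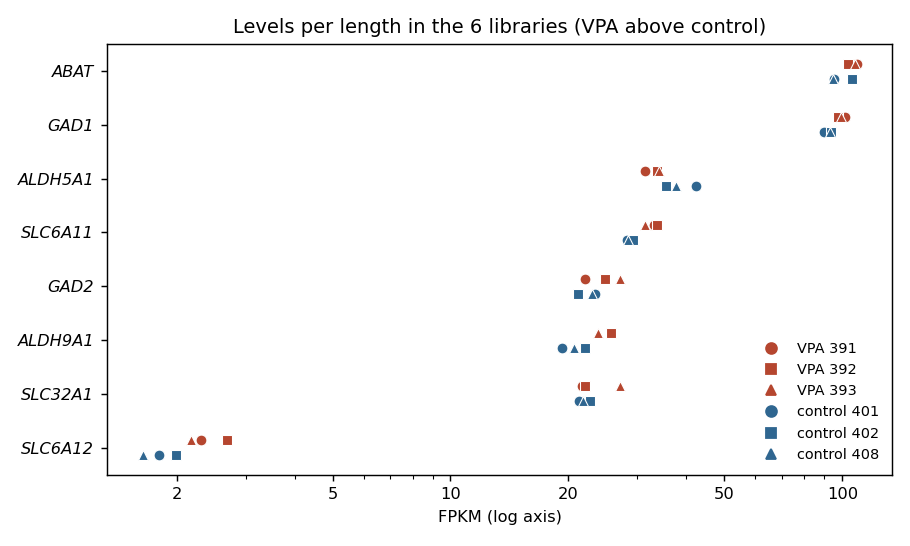
FPKM of the 8 genes (horizontal log axis), ordered by their mean over 6 libraries, with VPA libraries drawn above controls in each row. ABAT and GAD1 lie between 89.5 and 109 FPKM, a middle group of 5 genes between 19.3 and 42.2 FPKM, and SLC6A12 between 1.64 and 2.69 FPKM.

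Among themselves the 8 genes did not follow a common pattern over the libraries. ALDH9A1 and SLC6A11 had the most similar profiles (mean absolute difference of standardised log2 CPM over 6 libraries 0.18), followed by SLC6A11 with SLC6A12 (0.28) and GAD1 with ALDH9A1 (0.30). GAD2 and SLC32A1 had in common that VPA 393 was highest. Over all genes tested with at least 10 CPM, the nearest profiles to GAD1 were those of ARHGAP42 (0.11), MKNK2 (0.11) and CLK4 (0.14). The nearest to GAD2 were CCNE1 (0.13), ALKBH6 (0.13) and CLYBL (0.14). For SLC32A1 they were SLC25A28 (0.055), FAM181A (0.13) and TET2 (0.16), and for ALDH5A1 they were PCNP (0.14), BAIAP2 (0.15) and C18H7orf25 (0.16). With 10191 candidate genes and 6 libraries, close matches are a description of these animals only.

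Of 38 listed genes of neighbouring GABA, glutamate and polyamine metabolism and transport, 36 were measured and none was called (edgeR; the lowest adjusted p was 0.067). At an unadjusted p under 0.05, 9 were higher and 4 lower in VPA, where over all genes tested 8.69% were higher and 7.47% lower. The median log2 fold change was 0.02, with 21 positive and 15 negative. The 3 with the lowest p were ALDH1A1, SLC1A3 and SLC1A2. ALDH1A1, an aldehyde dehydrogenase that makes GABA in dopamine neurons of the mouse, had 97.1, 145 and 98.1 CPM in VPA 391, 392 and 393, against 29.1, 45.1 and 70.1 CPM in control 401, 402 and 408. Its libraries did not overlap, and control 408 had over 2-fold the level of control 401 (log2 fold change 1.22 ± 0.26, adjusted p = 0.067, edgeR). The astrocyte glutamate transporter genes SLC1A3 and SLC1A2 had log2 fold changes of 0.39 ± 0.083 (adjusted p = 0.067) and 0.18 ± 0.047 (adjusted p = 0.11).

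Other enzymes that flank the GABA genes were not called either. The log2 fold change of AKR7A2, which reduces succinic semialdehyde to gamma-hydroxybutyrate, was 0.02 ± 0.11 (adjusted p = 0.95, edgeR). ADHFE1, which oxidises gamma-hydroxybutyrate back, had 0.28 ± 0.12 (adjusted p = 0.30). The succinyl-CoA ligase genes SUCLG1, SUCLA2 and SUCLG2 had -0.02 ± 0.044 (adjusted p = 0.86), -0.15 ± 0.059 (adjusted p = 0.26) and 0.17 ± 0.090 (adjusted p = 0.39). OGDH, of the oxoglutarate dehydrogenase complex, had -0.0074 ± 0.044 (adjusted p = 0.95). GLUL, the astrocyte glutamine synthetase gene, had 0.13 ± 0.083 (adjusted p = 0.48). PDXK, the pyridoxal kinase gene, whose enzyme helps supply the pyridoxal phosphate cofactor of GAD and GABA transaminase, had 0.11 ± 0.086 (adjusted p = 0.58).

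Levels of cell type markers are given beside the genes those cells express. The 37 interneuron markers summed to 2293 to 2410 CPM in VPA and 2270 to 2295 CPM in controls, with overlap, while GAD1 did not overlap. Of the 35 tested, 25 had positive fold changes (median 0.15), where 50.5% of all genes tested did. The lowest p were those of LAMP5 (-0.30, adjusted p = 0.056), ZNF536 (0.42, adjusted p = 0.073) and MAF (0.45, adjusted p = 0.13). The 23 astrocyte markers summed to 14031 to 15864 CPM in VPA and 13237 to 13945 CPM in controls, without overlap, as for SLC6A11. Their median was 0.21, with 19 of 23 positive, led by HEPACAM (0.30, adjusted p = 0.052), SLC1A3 and ATP1B2 (0.28, adjusted p = 0.073). The part of astrocytes in the SLC6A11 and ABAT levels was not tested. The 21 mural, fibroblast and leptomeningeal markers summed to 682 to 831 CPM in VPA and 608 to 732 CPM in controls, with overlap, and were highest in VPA 392, as was SLC6A12. The sums of interneuron, astrocyte, oligodendrocyte, oligodendrocyte precursor and endothelial markers were highest in VPA 392 too, so this peak was not particular to the mural list. Of the 21, 14 had positive and 7 negative fold changes, with a median of 0.12 (0.05 without VPA 392). The lowest p were those of MYH11 (0.31, adjusted p = 0.10), ACTA2 (0.38, adjusted p = 0.18) and NOTCH3 (0.20, adjusted p = 0.34). Their part in the SLC6A12 level was not tested.

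The 17 striatal markers had a median of 0.95 over the 15 tested, 14 of them positive, and of 0.46 without VPA 393. The lowest p were those of DRD2 (3.65, adjusted p = 0.077), RXRG (0.86, adjusted p = 0.097) and RGS9 (1.12, adjusted p = 0.10). Striatal projection neurons are themselves GABAergic. The 19 glutamatergic markers had a median of -0.14, 13 of them negative, with NEUROD6 (-0.34) and KCNV1 (-0.29) among the lowest p. The glutamatergic markers summed to 6405 to 6573 CPM in VPA and 6735 to 6984 CPM in controls, without overlap. For 20 oligodendrocyte markers the median was 0.32, with 18 positive, and CLDN11, MAG and TF had the lowest p. Oligodendrocyte sums were 18654 to 20970 CPM in VPA and 14191 to 18950 CPM in controls, with overlap. For 14 precursor markers the median was 0.19, with 12 positive, and PTPRZ1, COL9A1 and LHFPL3 had the lowest p. Precursor sums were 1485 to 1702 CPM in VPA and 1226 to 1412 CPM in controls, without overlap. The median was 0.11 for 15 microglia markers, 11 of them positive, and SALL1 (0.26), CX3CR1 (0.23) and ITGAM (0.23) had the lowest p. It was 0.04 for 13 endothelial markers, 9 of them positive, where the lowest p were those of EMCN (-0.27), ABCB1 (0.22) and ESAM (-0.30). None of the markers in these lists was called in edgeR's test. Among 9 tested choroid plexus and ependymal markers (median 0.12) TTR, the transthyretin gene, was called (2.55, adjusted p = 0.041), but not with any 1 library left out (adjusted p from 0.051 to 0.13). Every marker of these lists had counts in at least 1 library.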

How the data were processed

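Total RNA of prefrontal cortex (TRIzol, VAHTS Universal V6 kit, per the labels' protocols) was sequenced in 6 pigs. Aligner, counter, strandedness, build and annotation were not given in the sources used here. For each library the authors deposited a table of raw counts and a table of FPKM values, per the file headers and names. With a fixed length for each gene, the 97071 nonzero FPKM values followed from counts and file totals (largest relative deviation 1.0e-07), so both units hold the same measurement. None of the 15 library pairs agreed within sampling noise.

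CPM were computed from file totals. Counts were tested in R 4.3.3 with edgeR 4.0.16 (filterByExpr defaults, TMM, glmQLFit and glmQLFTest, no covariate, Benjamini-Hochberg over 14373 genes, threshold 0.05). The procedure was checked on counts simulated from its own fit. That check required recovery only of changes larger than those of the 8 genes. Standard errors and 95% intervals were derived from the F statistic. Ratios of 2 genes within a library were compared by exact two-sided permutation over the 6 libraries. Group levels are mean ± SD and log2 fold changes are given ± SE. The edgeR p-values rest on the spread between these 6 animals, with variance estimates moderated over all genes tested, and intervals are unadjusted. All p-values treat the animals as independent, which is not known because litters are not stated. Named genes are the 8 members, any called gene or otherwise the 3 lowest p in each list, and the 3 nearest profiles for GAD1, GAD2, ALDH5A1 and SLC32A1. SLC6A13, other enzymes of the pathway list and GPLD1 were named after their values were seen. Some genes that the rule selects are left out of the text. Members and lists were chosen with earlier results of these data known. All 8 member names matched RefSeq symbols (Sscrofa11.1). That table served for names and overlaps only. Alternatives were other scaling and filters, DESeq2 1.42.0, limma 3.58.1 as voom on counts and as trend on log2 FPKM (pseudocount 1 or 0.1, mean FPKM of at least 0.5), EIF1AY as a covariate, and each library left out.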

Additional observations from a re-analysis of the deposited data

How the results depend on the processing

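None of the 8 genes was called under any of the 16 alternatives, and of 128 values for these genes 127 kept their direction. The exception was SLC32A1, at -0.014 without VPA 393, and from -0.014 to 0.14 over the libraries left out in turn. Log2 fold changes over the alternatives ran from 0.07 to 0.11 for GAD1, from 0.05 to 0.18 for GAD2, from 0.07 to 0.15 for ABAT, from -0.29 to -0.17 for ALDH5A1, from 0.21 to 0.31 for ALDH9A1, from 0.15 to 0.21 for SLC6A11 and from 0.27 to 0.46 for SLC6A12. ALDH5A1, ALDH9A1 and SLC6A11 had an unadjusted p under 0.05 in all 16, with adjusted p from 0.13 to 0.34, from 0.074 to 0.32 and from 0.095 to 0.34. Summing ALDH5A1 with GPLD1, an alternative chosen after seeing the data, moved the ALDH5A1 value to -0.02. With TMM-scaled CPM, also added later, 5 members had groups that did not overlap, against 21.4% of genes tested. With 1 library left out, log2 ratio differences near 0 changed sign, running from -0.11 to 0.058 for GAD1/GAD2, from -0.033 to 0.044 for ABAT/GAD1 and from -0.12 to 0.059 for SLC32A1/GAD1, while the other 3 ratios kept theirs. List medians ran from 0.036 to 0.078 for the neighbouring pathway genes, from 0.065 to 0.16 for interneuron, from -0.16 to -0.11 for glutamatergic, from -0.053 to 0.22 for choroid plexus and ependymal, from 0.46 to 1.21 for striatal, from 0.16 to 0.24 for astrocyte, from 0.05 to 0.19 for mural, fibroblast and leptomeningeal, from 0.04 to 0.15 for microglia, from -0.0041 to 0.07 for endothelial, from 0.24 to 0.42 for oligodendrocyte and from 0.14 to 0.25 for precursor markers.

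Over all genes, edgeR called 52. It called 141 with no filter, DESeq2 called 435, limma-voom 30 and limma on either log2 FPKM scale 2. With 1 library left out the count ran from 0 (without VPA 391 or VPA 392) to 66 (without control 401), and it was 1 without VPA 393, 5 without control 402 and 2 without control 408. The cause was not tested. No paired analysis was possible because the animal numbers are not shared between groups.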
